A study of Homo sapiens with 42 samples.

Results

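The genes described are those whose symbol is PSM, a letter from A to G and a number, the family named for proteasome subunits. RefSeq (GRCh38.p14) lists 48 such genes, and 44 of them had at least 1 called site in the tables used here, of 11984 gene names in all. They were 15 core genes (PSMA and PSMB), 20 regulatory genes (PSMC and PSMD) and 9 others (PSME, PSMF and PSMG). PSMA8, PSMB8, PSMB9 and PSMB11 had no called site. TAS-seq expresses TadA-8e, a bacterial tRNA adenosine deaminase evolved to act on single-stranded nucleic acid, so that accessible adenosines in RNA are read as G. Its location was set by 1 of 3 targeting signals: nuclear export (NES, for the cytoplasm), nuclear localisation (NLS) or endoplasmic reticulum membrane (ERM).

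The data were 14 libraries in 7 groups of 2, out of 42 samples in the series. HEK293T, a human embryonic kidney line that holds the SV40 T antigen, gave poly(A) RNA with NES, NLS and ERM and rRNA-depleted RNA with NES and NLS. K562, a leukaemia line with erythroid features, gave poly(A) RNA with NES and NLS. Both lines were labelled wild type and took up the plasmids transiently, HEK293T by lipofection and K562 by electroporation, and GFP-positive cells were sorted. The expressed amount of each construct is not given in the sources used here. Control libraries with GFP alone were not analysed here, so no background rate stands beside the values. The labels do not say that the 2 replicates of a group were separate cultures, and each p-value therefore covers only library-to-library spread, which may be technical. In bulk libraries, fewer cells with active enzyme and fewer changed reads per cell cannot be told apart. The 8 K562 markers reported here (HBG1, HBG2, HBE1, HBZ, GATA1, TAL1, KLF1 and ALAS2) had sites in both K562 tables and none in HEK293T. Of 5 HEK293T markers, NEFM, NEFL and CDH2 had sites in HEK293T tables alone, and PAX2 and HOXC6 had none anywhere.

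The proteasome is the main protease for ubiquitin-tagged proteins in the cytoplasm and nucleus. Its core particle is a barrel of stacked rings, with outer alpha rings (PSMA) that gate the entrance and inner beta rings (PSMB) that hold the protease sites. The regulatory particle caps the barrel and is made of ATPases that unfold substrates (PSMC) and of non-ATPase subunits that receive ubiquitin and build the lid (PSMD). The PSME genes encode other activators, PSMF1 an inhibitor, and PSMG1 to PSMG4 chaperones that assemble the core. These proteins are made on cytoplasmic ribosomes without a signal peptide, and their mRNAs are abundant in most cells.

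Sites close to the start of a transcript show what was measured. Their surrounding bases are given for 7 positions in 6 genes where NES and NLS were both called in HEK293T. They are a choice from 13 such positions in 11 genes for which these bases were available. Each line gives the RNA-sense strand from 5′ to 3′ as DNA letters (RefSeq promoter table, GRCh38.p14), with the called adenosine in capitals.
PSMC3, chr11:47426410-47426430, minus strand: gctccgcagcAcggccggagc
PSMC4, chr19:39971174-39971194, plus strand: caggccacacAgaggccggct
PSMA2, chr7:42932152-42932172, minus strand: ctcttcgggtAaagatggcgg
PSMA2, chr7:42932132-42932152, minus strand: gagcgcgggtAcagcttttcg
PSMB4, chr1:151399575-151399595, plus strand: taccgtgactAagatggaagc
PSMD6, chr3:64023450-64023470, minus strand: agccggtcgtAaccaagttgt
PSMC2, chr7:103347666-103347686, plus strand: ggtgctgtgtAatcattaagg
All these positions lay within the first 50 bases after the gene start used in that promoter table, from which bases are counted here. In PSMC2 and PSMD6 this start lies inside the gene's RefSeq span and is not its first base. The position in PSMC3, an ATPase gene, is base 20 from that start and had changed reads of 64.9% and 51.2% in the NES libraries against 26.2% and 22.1% in the NLS libraries. Base 20 of PSMC4, another ATPase gene, had 34.2% and 33.3% against 14.6% and 24.6%. In PSMA2, an alpha ring gene, base 13 had 16.4% and 13.95% against 9.54% and 7.84%, and base 33 had 12.3% and 17.7% against 5.38% and 4.44%. Base 13 of PSMB4 had 9.94% and 8.27% against 5.08% and 6.21%. NES was higher at all of these. At base 34 of PSMC2 the order was the other way, with 5.58% and 4.38% for NES and 8.98% and 15.4% for NLS. The NES and NLS libraries overlapped at none of these 7 positions, and at base 35 of PSMD6 the NLS libraries (15.3% and 14.2%) were also above the NES libraries (11.3% and 13.6%). This separation does not hold for all 13. Among those not printed, the libraries overlapped at base 22 of PSMA1, base 24 of PSMA3, base 18 of PSMC4 and base 39 of PSMC6. Both NES libraries were higher at base 30 of PSMD3 and base 35 of PSMD13.

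The base before the adenosine was read over the same 50-base window of the 20 members that had a NES site there in HEK293T poly(A) RNA. Of 28 adenosines that followed a T (U in the RNA), 16 were called (57.1%). Of 170 adenosines after another base, 21 were called (12.4%). Over the 1082 genes with a site in this window the shares were 58.6% and 15.7%, so the members' shares lay close to those of all genes. With NLS, 17 of 28 adenosines after T (60.7%) and 12 of 148 others (8.11%) were called. Over the 899 genes with a NLS site there the shares were 62.3% and 13.9%. All 46 member sites in this window over the 7 tables fell on an adenosine of the RefSeq sequence. The 2 strongest positions printed, in PSMC3 and PSMC4, followed a C.

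In HEK293T poly(A) RNA, most proteasome mRNAs carried more changed reads with NES than with NLS, also relative to other genes. A member's rate in a library is the mean percentage of changed reads over its sites called with both constructs, and members with at least 5 such sites were tested. Of the 41 tested, 29 were higher with NES relative to the median gene, 4 were lower and 8 did not pass. Of all 6739 genes tested, 32.9% were higher and 31.9% lower. The median gene itself had a NES rate above its NLS rate by 0.66 on the log2 scale, and every change below is given relative to this unless said otherwise. The median of the members was 0.39. Without the centring, 41 of 41 members were higher with NES, against 77.8% of all genes, and none was lower, against 6.11%.

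All 7 tested alpha ring mRNAs were higher with NES, in a narrow range from 0.42 (PSMA2) to 0.63 (PSMA4). PSMA4 had rates of 7.88% and 7.84% in the NES libraries and 3.22% and 3.24% in the NLS libraries (log2 change 0.63, SE 0.053, adjusted p = 9.2e-08, limma). PSMA6 had the highest rates of the ring, with 11.2% and 10.999% for NES and 5.11% and 5.18% for NLS. Alpha subunits form the gate of the core, and the 7 mRNAs shared one pattern: the lowest NES library was at least 7.01% and the highest NLS library at most 5.18%.

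The beta ring was less uniform. Of its 7 tested mRNAs, 5 were higher, 1 did not pass and 1 was lower. PSMB7, which encodes the subunit with trypsin-like activity, had 11.99% and 11.96% with NES and 3.65% and 4.26% with NLS (log2 change 0.95, SE 0.073, adjusted p = 3.6e-08). PSMB5, the chymotrypsin-like subunit and the target of bortezomib, changed by 0.64, and PSMB6, the caspase-like subunit, by 0.62. PSMB2 had 9.83% and 9.33% against 5.60% and 5.76% (0.10, adjusted p = 0.11). PSMB4, a structural beta subunit without protease activity, was on the other side. Its NES rates were 8.11% and 8.31% and its NLS rates 6.25% and 6.25% (-0.26, SE 0.056, adjusted p = 0.0008), so it was lower relative to the median gene although its NES libraries lay above its NLS libraries. Its sign depended on how sites were summarised: with the median of its site rates in place of their mean, the change was 0.43.

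Among the ATPases, 4 of 6 were higher and 2 did not pass. PSMC5 had 11.5% and 10.9% with NES and 3.80% and 3.63% with NLS (0.93, SE 0.067, adjusted p = 1.8e-08), and PSMC3 changed by 0.73. PSMC2 (0.02) and PSMC6 (-0.04) did not pass. The 2 had NLS rates of 5.81% to 6.89%, above the 3.63% to 5.71% of the other ATPases. Sites of PSMC2 need care, since 95.0% of its NES sites lie inside the RefSeq span of SLC26A5. The same holds for PSMA6, whose sites all lie inside the span of the read-through gene PRORP-PSMA6. Library strand was kept, per the labels' kit, but reads of genes on one strand cannot be told apart. These overlaps were counted without regard to strand, so they can include a gene on the other strand.

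The 11 non-ATPase subunits gave 8 higher, 2 lower and 1 that did not pass. PSMD8, a lid subunit, had 11.8% and 11.9% against 3.99% and 4.40% (0.85, SE 0.066). PSMD1, a scaffold of the base, changed by 0.67 and PSMD4, a ubiquitin receptor, by 0.66. PSMD12, a lid subunit, had NES rates of 9.66% and 10.0% and NLS rates of 9.01% and 9.04%, the highest NLS rates of the non-ATPase subunits (-0.53, SE 0.048, adjusted p = 1.9e-07). PSMD2, the other scaffold of the base, had 7.04% and 6.73% against 5.03% and 4.92% (-0.19, adjusted p = 0.0054). Its call was lost without the second NES library (adjusted p = 0.10). PSMD11 did not pass (-0.06).

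Of the chaperones that help build the base, PSMD10 (gankyrin) showed the highest change of all members. It had 14.3% and 14.4% with NES and 4.41% and 4.43% with NLS over 96 sites (1.04, SE 0.058, adjusted p = 1.3e-09). PSMD9 did not pass (-0.03, 22 sites), and PSMD5 had 13 NES sites and 1 NLS site and was not tested. Among the activators, PSME3, the nuclear activator, was higher (0.50), PSME4 was lower (-0.17, adjusted p = 0.03), and PSME1 (0.33) and PSME2 (0.28), with 9 and 6 sites, did not pass. PSME4 lost its call without either NES library or without the second NLS library (adjusted p of 0.095, 0.14 and 0.073). PSMF1 changed by 0.25. Of the core chaperones, PSMG1 (0.41) and PSMG2 (0.24) were higher, the latter not without the second NES or the second NLS library (adjusted p of 0.14 and 0.13), and PSMG3 (-0.16, 17 sites) did not pass. PSMG4 had 1 shared site.

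**Figure D1:**
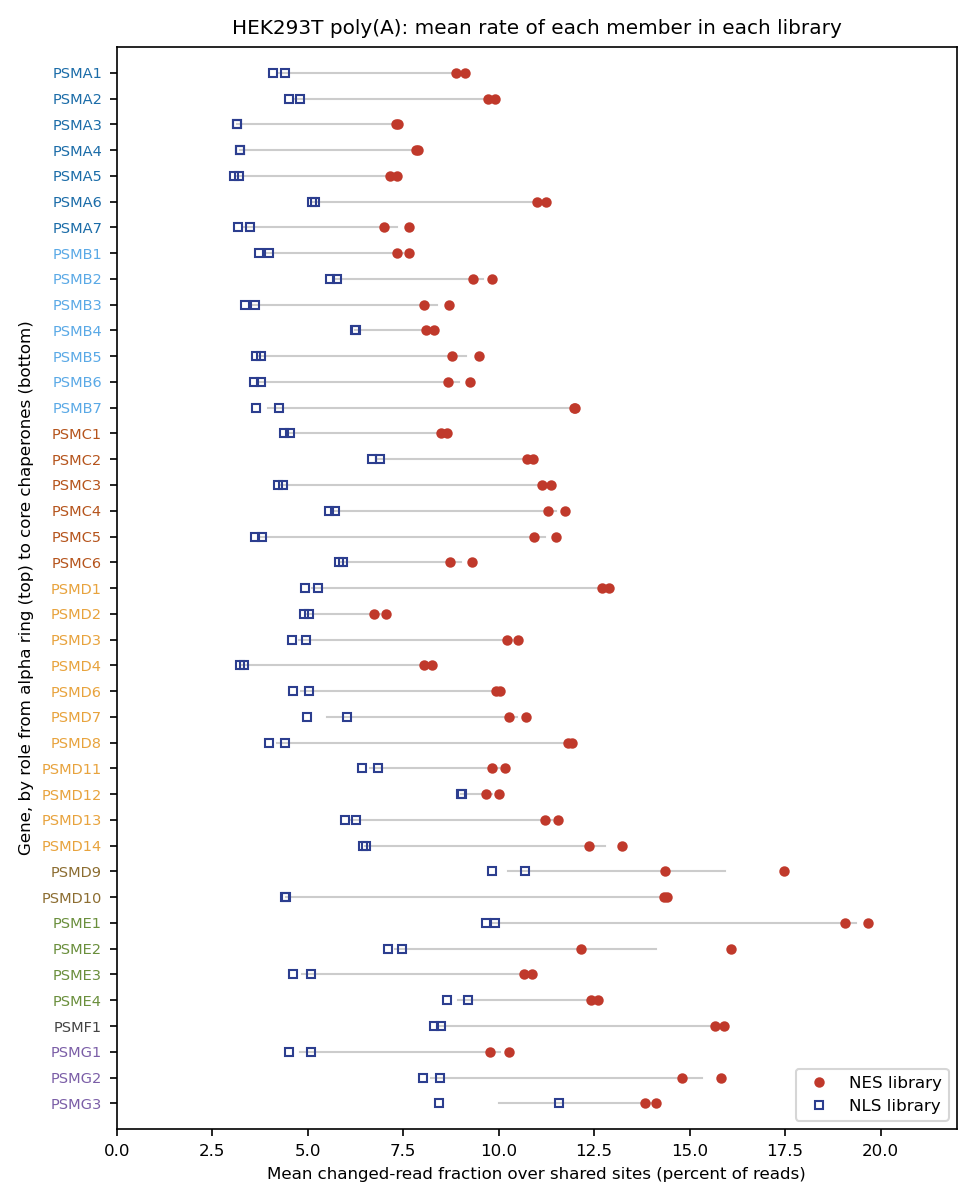
Mean percentage of changed reads over shared sites (x axis) for the 41 tested members (y axis, ordered and coloured by role), with 1 point for each NES (filled circle) and NLS (open square) library of HEK293T poly(A) RNA; grey lines join the means. Every NES library lies to the right of both NLS libraries of the same gene, with the widest distance in PSMD10 and the narrowest in PSMD12.

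Other genes of the ubiquitin-proteasome pathway moved less as a group. Of 30 listed genes 29 were tested, and 12 were higher, 6 lower and 11 did not pass, with a median of 0.07. UBQLN1, a shuttle that brings substrates to the proteasome, changed by 0.44, and RAD23B, another shuttle, by 0.66. UBA1, the main ubiquitin-activating enzyme, changed by 0.29. The list was chosen with earlier results of these data known.

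Single sites gave the same order in the members. Of 3873 member sites called with both constructs, 71.9% had both NES libraries above both NLS libraries and 6.48% had both below. Over all 443249 shared sites the shares were 56.4% and 13.9%. The share with NES below was highest in PSMD12 (28.6%), followed by PSMG3 (17.6%), PSME4 (14.8%), PSMB4 (14.7%) and PSMD2 (13.7%). The median member site had 7.33% with NES and 3.89% with NLS. Among these shared sites, the highest NES rate was in PSMD14, the deubiquitinase of the lid, at chr2:161371239 (hg38), with 66.3% and 66.8% for NES and 29.9% and 36.4% for NLS. In PSMD10 a site at chrX:108087991 had 62.9% and 58.9% against 10.9% and 9.74%. The highest NLS rate at a shared site was in PSMF1 at chr20:1166044, where the libraries overlapped (31.8% and 71.2% for NES, 69.5% and 47.7% for NLS). No exon model of hg38 was used here, so sites are not assigned to exons, introns or untranslated regions.

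Shared sites with a mean of at least 5% over both constructs were also ranked by the ratio of the constructs. They are a description, since the ratio chose them. The largest ratio in favour of NES was at chr17:63830918 in PSMC5, with 23.5% and 18.5% for NES and 1.28% and 1.63% for NLS. A site of PSMD1 at chr2:231072404 had 33.4% and 37.8% against 3.48% and 2.04%. The largest ratio in favour of NLS was at chr14:52713899 in PSMC6, with 1.88% and 1.61% for NES and 7.68% and 12.3% for NLS. PSMD12 at chr17:67357390 and PSMA5 at chr1:109413088 followed, with NLS means of 8.09% and 8.00%, against NES means of 1.91% and 2.26%. In K562 the same 3 genes' sites had NLS means of 16.2%, 8.04% and 11.8%. The PSMD12 site was not called with NES in K562.

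Core mRNAs had a higher median NES change than regulatory mRNAs, with broad overlap. The 14 tested core members had a median of 0.52 and a range from -0.26 to 0.95, and 12 were higher and 1 lower. The 19 tested regulatory members had a median of 0.32 and a range from -0.53 to 1.04, and 13 were higher and 2 lower. The difference of the medians was 0.19, and between 0.14 and 0.24 over the 4 pairs of a NES and a NLS library. It shrank to 0.06 when the median of site rates replaced their mean. The levels were also lower in the core group: its median gene rate over shared sites was 8.67% for NES and 3.79% for NLS, against 10.8% and 5.11% for the regulatory group. No test was made of the difference, since the members were chosen with results known.

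In K562 poly(A) RNA, libraries that share nothing with those of HEK293T gave the same order for most members. Of 43 tested members, 32 were higher with NES relative to the median gene, 5 were lower and 6 did not pass. Of 6523 genes, 37.4% were higher and 37.3% lower, and the median gene had a NES rate above its NLS rate by 0.72 on the log2 scale. Without the centring 42 members were higher, against 80.2% of all genes, and none was lower, against 5.89%. Of 4185 shared member sites 70.6% had both NES libraries above both NLS libraries and 8.86% both below, against 59.3% and 14.9% of all shared sites. All 29 members higher in HEK293T were higher in K562 too, which is 100% of the HEK293T list and 90.6% of the 32 in K562. Over all 5534 genes tested in both lines, 80.4% of the 1983 higher in HEK293T were higher in K562, and 81.8% of the 1746 lower in HEK293T were lower. Of the 4 members lower in HEK293T, PSME4 alone was lower in K562 (25%), PSMB4 was called higher, and PSMD2 and PSMD12 did not pass.

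Every core mRNA tested in K562 was higher with NES. PSMB7 had 12.8% and 13.01% with NES and 3.13% and 3.52% with NLS (1.24, SE 0.060, adjusted p = 3.3e-07), and PSMB4 was the lowest, with 11.8% and 11.8% against 6.56% and 6.65% (0.12, SE 0.044, adjusted p = 0.039). The PSMB4 call was lost without either NES library (adjusted p of 0.20 and 0.18). In the alpha ring the changes ran from 0.34 (PSMA1) to 0.95 (PSMA4). The core median was 0.70 and the regulatory median 0.45, a difference of 0.25 that ranged from 0.23 to 0.32 over the 4 library pairs. With the median of site rates it was 0.51.

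Regulatory mRNAs of K562 spread from -0.27 to 0.95. PSMC3 was the highest ATPase (0.95), PSMD8 the highest lid subunit (0.91) and PSMD10 the highest base chaperone (0.83). Lower relative to the median gene were PSMC6, with 11.8% and 11.4% for NES and 7.73% and 7.96% for NLS (-0.15, adjusted p = 0.0063), PSMD11 (-0.14, adjusted p = 0.012) and PSMD5 (-0.27, adjusted p = 6.3e-05). PSMC6 lost its call without the second NES library (adjusted p = 0.090), and PSMD11 without the first (adjusted p = 0.17). PSMD12 did not pass (-0.07). Across all members, fewer were lower without the first NES library and more without the second NLS library. The same held over all genes, and the members' median change was 0.51 and 0.54 in these fits. Outside the core and regulatory groups PSME4 (-0.24) and PSMG3 (-0.40) were lower, the latter not without the first NES library (adjusted p = 0.087), PSMG1 changed by 0.86 and PSME1 by 0.66. Of the pathway genes, 17 of 29 tested were higher and 7 lower.

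**Figure D2:**
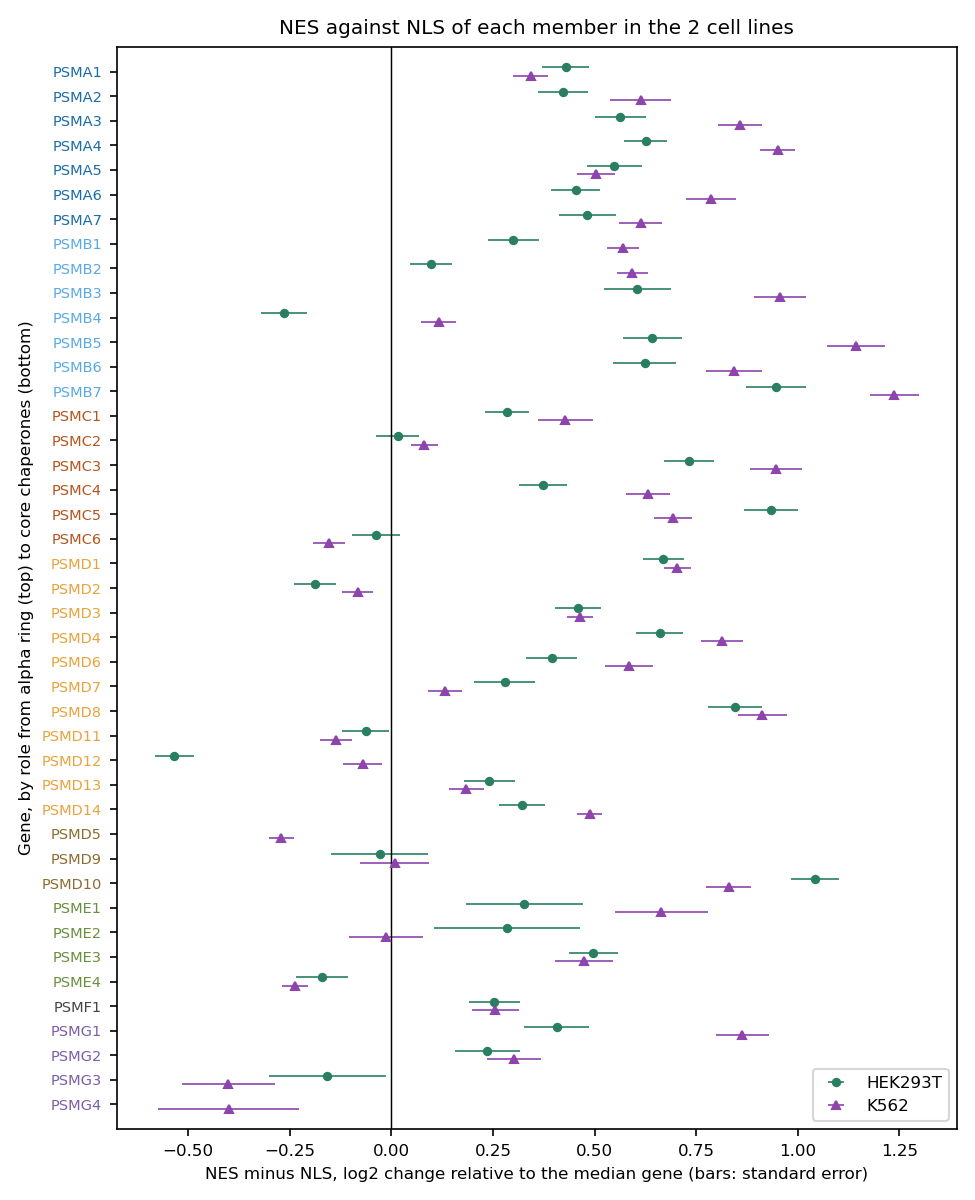
NES minus NLS log2 change relative to the median gene (x axis, bars show the standard error) of each member (y axis, by role) in HEK293T (circles) and K562 (triangles) poly(A) RNA. Most genes lie to the right of 0 in both lines. To the left of 0 lie 8 genes in HEK293T and 9 in K562. PSMC6, PSMD2, PSMD11, PSMD12, PSME4 and PSMG3 do so in both lines, and PSMB4 and PSMD9 in HEK293T alone.

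The difference between the lines was tested over sites called in all 4 tables, as the interaction of line and construct. Of 41 tested members, 12 had a larger NES against NLS change in K562 and 2 a smaller one. Of 5172 genes, 18.4% and 16.5% did, and values are relative to a median difference of 0.13. Without this centring 20 members had a larger change in K562 and none a smaller one, against 29.1% and 8.68%. The core held 8 of the 12, and its median difference was 0.22 against 0.01 in the regulatory group. The largest was PSMB2, with means of 12.1% for NES and 4.75% for NLS in K562 and 9.99% and 5.92% in HEK293T (0.47, SE 0.061, adjusted p = 2.6e-05). PSMG1 (0.47, adjusted p = 0.0048) and PSMB5 (0.41, adjusted p = 0.0092) followed. PSMD12 (0.32) and PSMD6 (0.31) were the highest in the regulatory group, and PSMD10 was smaller in K562 (-0.28, adjusted p = 0.014). Without any 1 library other than the second K562 NLS library, fewer members were called larger in K562, and fewer of all genes were too. The members' median difference lay between 0.09 and 0.13 in these fits. Of the 14 calls, 5 held in each of the 8 fits that left out 1 library, namely PSMA4, PSMB1, PSMB2, PSMD12 and PSMG1. With the median of site rates 3 of the 14 held, namely PSMB2, PSMD12 and PSMG1.

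The enzyme at the endoplasmic reticulum membrane changed these mRNAs less than the cytoplasmic enzyme, by more than in the median gene. Of 41 tested members, 26 were lower with ERM than with NES, 1 was higher and 14 did not pass. Of 6884 genes, 20.9% were lower and 12.9% higher, and the median gene was at -0.66. The comparison shares its NES libraries with the first one. As deposited, without centring, 41 of 41 members were lower with ERM, against 91.2% of all genes, and none was higher, against 0.0726%. Of 3275 shared member sites 0.82% had both ERM libraries above both NES libraries and 84.98% both below, against 1.99% and 75.9% of all shared sites. When any 1 of the 4 libraries was left out, fewer members were lower, and fewer of all genes were too. The members' median change was -0.19 in each of these fits. Without the variance trend in limma 12 members were lower, beside 911 of 6884 genes. Over sites called with all 3 constructs 17 members were lower and 6 higher, and of 5750 genes 1142 were lower and 787 higher.

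PSMB7 was the lowest, with 5.71% and 5.67% with ERM and 14.1% and 14.2% with NES over its shared sites (-0.65, SE 0.053, adjusted p = 1.5e-05). PSME2, an activator subunit, was next over its 9 shared sites, with 6.49% and 5.71% against 12.5% and 15.3% (-0.52, adjusted p = 0.024). Its call was lost in 3 of 4 fits without 1 library (adjusted p of 0.076 to 0.15). Of the ATPase mRNAs 5 of 6 were lower, from PSMC5 (-0.49) to PSMC4 (-0.23), and PSMC6 did not pass (0.10). Of the non-ATPase subunits 8 of 11 were lower, with PSMD1 at -0.38, and PSMD12 (0.11), PSMD11 and PSMD14 (-0.09) did not pass. The alpha ring was split. PSMA1, PSMA2 and PSMA4 were lower (-0.17 to -0.16), and the other 4 lay between 0.00 (PSMA5) and 0.14 (PSMA7) without passing. The calls of PSMA1 and PSMA2 were lost in each of the 4 fits that left out 1 library, and that of PSMA4 in 3. The 1 member higher was PSMG1, with 7.29% and 7.79% against 9.20% and 9.74% (0.33, SE 0.064, adjusted p = 0.0029). The medians were -0.16 for the core and -0.23 for the regulatory group, a difference of 0.06 that became -0.0077 with the median of site rates. Of the 30 pathway genes 13 were lower and 5 higher.

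Against the nuclear enzyme the membrane enzyme gave a mixed picture. Of 41 tested members, 18 were higher with ERM than with NLS, 6 were lower and 17 did not pass, while 29.8% of 5826 genes were higher and 31.1% lower. The median gene was at 0.13. This comparison shares libraries with both above. PSMD10 was highest, with 8.39% and 8.33% for ERM and 4.76% and 4.77% for NLS (0.68, SE 0.058, adjusted p = 8e-07). The alpha ring had 5 of 7 higher, up to PSMA3 (0.54). Lower were PSMB4 (-0.27), PSMC2 (-0.43), PSMD11 (-0.18), PSMD12 (-0.42), PSMD2 (-0.58) and PSMG3 (-0.44). PSMD11 and PSMG3 each lost the call in 3 of 4 fits without 1 library (adjusted p of 0.073 to 0.17 and of 0.062 to 0.34). PSMD2 had 5.08% and 4.55% with ERM and 6.60% and 6.49% with NLS, so its ERM libraries lay below its NLS libraries. With the median of site rates 9 of the 41 members were higher and 6 lower, beside 1224 and 1443 of 5826 genes. Without centring 25 were higher and 3 lower, against 40.5% and 22.5% of all genes. Of 2788 shared member sites 36.5% had both ERM libraries above both NLS libraries and 28.4% both below, against 30% and 34.6%.

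In rRNA-depleted RNA of HEK293T few members passed the test, whose power here is not known. In values simulated with noise drawn separately for each gene it recovered 0% of planted log2 changes of 1. That simulation held no shift of a whole library, while the 2 NES libraries stood apart as a whole, as given below. The 0% is therefore not the power in the measured values, where PSMD10 passed with a smaller change. A member that did not pass is not shown to be unchanged. Of 41 tested members 1 was higher with NES, none was lower and 40 did not pass with limma, against 0.989% and 3.7% of 5357 genes. At an unadjusted p under 0.05, 6 were higher and 1 was lower, and the share of all genes at that cutoff was not counted. How many members were called turned on which library was left out, and this held among all genes as well. The members' median change stayed between 0.19 and 0.24 in these fits. Without the centring 1 was higher and none lower, against 1.23% and 3.51% of all genes. Of 1764 shared member sites 33.7% had both NES libraries above both NLS libraries and 19.95% both below, against 25.7% and 29.1% of all shared sites. The 2 NES libraries stood apart from each other, with mean rates over all sites of 17.6% and 21.4%, and the NLS libraries had 18.9% and 19.01%. The lowest called rate of the median core gene was 2.42% in this RNA with NES, against 0.599% in poly(A) RNA.

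The member that passed was PSMD10, with 20.8% and 28.3% for NES and 14.7% and 14.03% for NLS (0.73, SE 0.23, adjusted p = 0.038). Its call did not hold without the first or the second NLS library, where the change was 0.78 and 0.69. With the median of site rates it did not hold either. PSMD8 had 16.7% and 20.2% against 11.1% and 12.8% (0.60, adjusted p = 0.13). PSMD2 was the lowest, with 9.48% and 13.8% against 16.9% and 17.8% (-0.63, adjusted p = 0.11). In PSMD2 both NES libraries lay below both NLS libraries. The core and regulatory medians were 0.20 and 0.29, in the other order than in poly(A) RNA, and the order turned with the median of site rates.

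The number of called sites differed most between the lines in PSMD5. In HEK293T poly(A) RNA it had 13 sites with NES, 1 with NLS and none with ERM, and in K562 it had 266 and 208. PSMD5 encodes a chaperone that holds ATPase subunits during assembly of the base. Its K562 rates over shared sites were 11.6% and 11.7% with NES and 8.49% and 8.58% with NLS. PSME4, the activator known as PA200, had 205 and 114 sites in HEK293T and 426 and 283 in K562. PSMB10, an interferon-inducible beta subunit, had 5 NES sites in HEK293T and 9 in K562, and PSME1 and PSME2, also interferon-inducible, had 20 and 31 in HEK293T. Depth per site is not in the tables used here, so a small number of sites may reflect few reads as well as few changes. That part was not tested.

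Sites called with NLS and not with NES were fewer in the members than over all genes, and some of them lay in runs. In HEK293T poly(A) RNA 446 of 4319 member NLS sites (10.3%) were not called with NES, against 22.9% of all NLS sites. In K562 the shares were 12.6% and 24.4%. Of the 446, 116 were NLS-only in K562 too, which is 26.0% of the HEK293T list and 19.2% of the 604 in K562. Over all genes the shares were 28.1% and 27.0%. The genes with most such sites in HEK293T were PSMD12 (56), PSMD2 (50), PSMB4 (35), PSMD11 (33) and PSME4 (33). Runs were then taken as at least 8 such sites with gaps of at most 150 bases, a rule chosen after the values were seen. They held 109 of the 446 sites in HEK293T (24.4%, in 6 genes) and 125 of the 604 in K562 (20.7%, in 8 genes).

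PSMB4 (gene span chr1:151399573-151401937) held the longest run in HEK293T by number, 27 NLS-only sites between chr1:151400563 and 151401207 with mean rates of 11.5% and 11.3% in the NLS libraries. Within the same interval the 19 sites called with both constructs had 8.83% and 8.78% with NES and 14.5% and 13.7% with NLS. Over the 90 shared sites outside it the order was the other way, with 7.95% and 8.21% against 4.50% and 4.68%. In K562 13 NLS-only sites lay between chr1:151400612 and 151401167, with 19.7% and 19.999%. In HEK293T, NLS rates exceeded NES rates at shared sites inside this interval of PSMB4 and not outside it. The interval was drawn from NLS-only sites of the same libraries, so this is a description and not an independent test. In K562 the 11 shared sites of its run had 11.6% and 10.99% with NES and 10.4% and 11.5% with NLS, and the libraries overlapped.

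PSMB1, another structural beta subunit, showed a different layout (gene span chr6:170535120-170553307, minus strand). In K562 a run of 17 NLS-only sites between chr6:170549184 and 170550070 had mean rates of 24.2% and 25.5%, and no NES site was called inside it. A second run of 9 sites between chr6:170550232 and 170550635 had 27.3% and 26.1%, again with no NES site. HEK293T had 3 and 0 NLS sites in the 2 intervals. Over the whole gene, HEK293T had 12 NLS-only sites with 28.8% and 28.7%, and K562 had 40 with 28.8% and 29.2%. Of these, 6 were NLS-only in both lines. The PSMB1 sites called with both constructs in K562 had 8.34% and 8.33% with NES and 3.41% and 3.41% with NLS. The NLS-only sites do not enter the gene mean, which holds shared sites only.

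**Figure D3:**
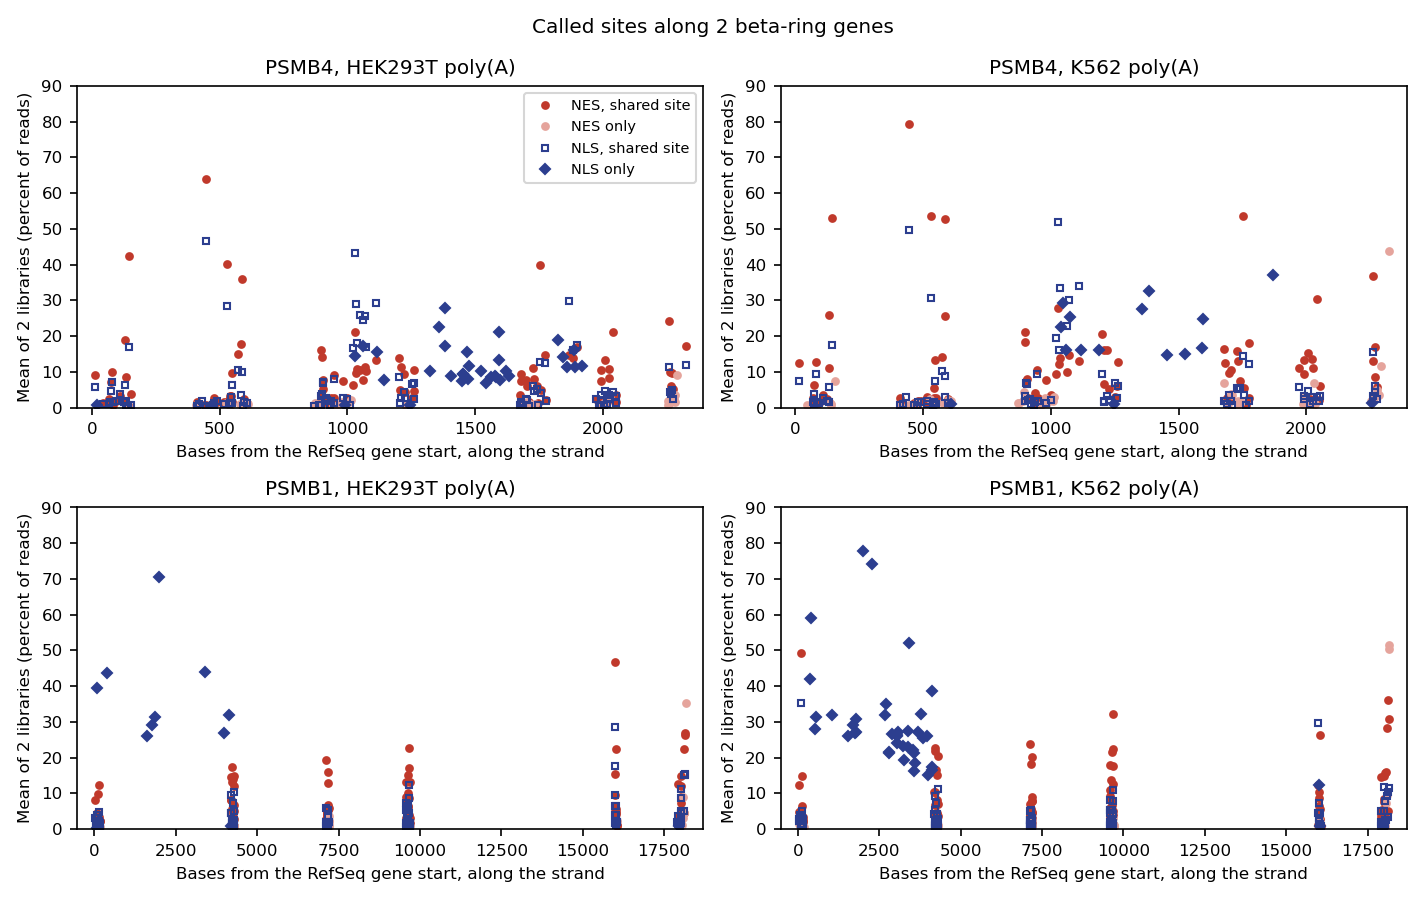
Mean rate of 2 libraries (y axis, percent of reads) at each called site of PSMB4 (top) and PSMB1 (bottom) against the distance from the RefSeq gene start (x axis, bases) in HEK293T (left) and K562 (right). Red circles are NES rates, open squares NLS rates at shared sites and filled diamonds sites called with NLS alone, which lie in the middle of PSMB4 and, in K562, between the first clusters of shared sites of PSMB1. Pale circles are sites called with NES alone.

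Further runs lay in regulatory and chaperone genes. PSMD11 had 22 NLS-only sites between chr17:32480963 and 32481968 in HEK293T (3.64% and 3.64%) and 20 between chr17:32480803 and 32481956 in K562 (4.02% and 4.69%). PSMC6 had 10 from chr14:52727509 to 52727852 in HEK293T and 12 from the same first base in K562. In these 2 genes the same stretch also held shared sites, 40 in PSMD11 and 26 in PSMC6 in HEK293T. Those of PSMD11 had 8.27% and 7.40% with NES and 7.18% and 7.55% with NLS, and the libraries overlapped. Those of PSMC6 were higher with NES, at 10.3% and 10.9% against 9.30% and 7.62%. PSMD12 had runs of 21 and 11 sites in HEK293T near the end of the gene (from chr17:67339436 and chr17:67338157), where K562 had 2 NLS sites in each. At the shared sites inside each PSMD12 run, both NLS libraries of HEK293T lay above both NES libraries. PSMD7, a lid subunit, had 8 near its start (chr16:74296885-74297117) with 17.9% and 17.05%, and 8 in K562 at chr16:74296837-74297109 with 7.72% and 10.1%. The 2 shared sites inside the HEK293T run of PSMD7 had 2.03% and 2.14% with NES and 3.03% and 2.86% with NLS.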

How the data were processed

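Changed-read rates were taken from 7 site tables of bulk RNA, each with 2 replicate libraries. The authors deposited, for each called site, its position, gene and the fraction of reads with the change in each replicate, together with p-values; the fractions are given as percentages here. All listed sites carry a deposited adjusted p-value under 0.05 for each replicate; these p-values entered no test here. Cutadapt, STAR, Bowtie2 and SAMtools and the build hg38 are named per the submitters' processing notes, without versions. How sites were called is not given in the sources used here. Read depth per site is unknown, so no interval or floor is given.

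Groups came from the sample labels. For each pair of groups, sites called in both tables were averaged per gene and library. Genes with at least 5 such sites were compared on the log2 scale with limma 3.58.1 in R 4.3.3 (two-sided, with the variance trended on log2 site number, Benjamini-Hochberg over all genes tested, threshold 0.05), after subtracting the median change of all genes; no pseudocount was needed. The comparison of lines was fitted as an interaction over sites called in all 4 tables. An exact permutation of 2 against 2 libraries cannot go below p = 0.333, so none is given. The script was tested on simulated data with log2 changes of 0.5 or 1, up or down, planted in 200 genes. Noise was drawn separately for each gene, so a shift of a whole library was not simulated. For rRNA-depleted RNA the script recovered 0% of either size. For the other comparisons it recovered 33% to 67% of the changes of 0.5 and 76% to 93% of those of 1.

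Members and lists were chosen with earlier results of these data known. Any tested member could be named for HEK293T NES against NLS, and the extremes of each role and members whose call differed elsewhere. For the pathway list of 30 genes, the rule named the 4 with most shared sites, of which 3 are given; 1 pathway gene and 1 line marker are not reported here. Sites named were, at 1 a gene, the 6 highest for NES and for NLS and the 4 with the largest ratio each way among those with a mean of at least 5% over both constructs, all from sites called with both. In HEK293T poly(A) RNA with NES, 10 of the 44 members had sites inside the span of another RefSeq gene on either strand, 703 of 6684 sites (10.5%). Tables of single-cell and other libraries were not used. Alternatives tried were no centring, the median of site rates, no site minimum, no variance trend, sites of all 3 constructs, a replicate block and leaving out each library. Tables were handled in pandas 2.3.3 and numpy 2.4.6 under Python 3.11.15, and figures drawn with matplotlib 3.10.9.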

Additional observations from a re-analysis of the deposited data

Results flagged for a closer look

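The NES against NLS change differed between the lines, by the interaction of line and construct in limma, in 14 of 41 members tested, 12 with a larger change in K562 and 2 with a smaller one. Of all genes tested, 18.4% and 16.5% did. All values are log2 differences, K562 minus HEK293T, relative to the median gene. In the alpha ring PSMA1 (0.22), PSMA4 (0.27) and PSMA6 (0.22) had a larger change in K562 and PSMA5 (-0.21) a smaller one. In the beta ring PSMB1 (0.28), PSMB2 (0.47), PSMB3 (0.29), PSMB4 (0.20) and PSMB5 (0.41) had a larger change in K562. In the regulatory group PSMC4 (0.22), PSMD6 (0.31) and PSMD12 (0.32) had a larger change in K562 and PSMD10 (-0.28) a smaller one. PSMG1, a core chaperone, was at 0.47. In PSMD12 the means were 13.1% with NES and 8.40% with NLS in K562, and 11.2% and 9.73% in HEK293T. The calls of PSMA1, PSMA5, PSMA6 and PSMB4 each held in 2 of 8 fits without 1 library, and those of PSMB3 and PSMC4 in 1. The lines also differed in delivery, electroporation against lipofection, and line and delivery cannot be told apart here.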

How the results depend on the processing

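Without centring on the median gene, HEK293T NES against NLS had 0 members lower, K562 had 0 lower, ERM against NES had 0 higher and 41 lower, ERM against NLS had 3 lower, and the difference between the lines had 20 higher and 0 lower. Members whose sign turned without centring and that passed in either fit were, in HEK293T NES against NLS, PSMB4 (0.39), PSMC6 (0.62), PSMD11 (0.59), PSMD12 (0.12), PSMD2 (0.47), PSMD9 (0.63), PSME4 (0.49) and PSMG3 (0.50). In ERM against NES they were PSMA3 (-0.65), PSMA5 (-0.66), PSMA6 (-0.64), PSMA7 (-0.52), PSMB2 (-0.54), PSMC6 (-0.57), PSMD12 (-0.55), PSMD9 (-0.65), PSME1 (-0.63), PSME3 (-0.57), PSME4 (-0.54) and PSMG1 (-0.33). In K562 they were PSMC6 (0.57), PSMD11 (0.58), PSMD12 (0.65), PSMD2 (0.64), PSMD5 (0.45), PSME2 (0.71), PSME4 (0.48) and PSMG3 (0.32). PSMG4 in K562 (from -0.40 to 0.32), 4 members in ERM against NLS, 1 in rRNA-depleted RNA and 7 between the lines turned without passing in either fit. These turns follow from the subtracted median. With the median of site rates, PSMB4 in HEK293T NES against NLS was at 0.43, PSMA5 in ERM against NES at -0.42 and PSMD7 in ERM against NLS at -0.33, and PSMA5 was at -0.29 over sites of all 3 constructs. With the median of site rates the core minus regulatory difference was 0.062 (HEK293T NES against NLS), -0.0077 (ERM against NES), 0.51 (K562), 0.085 (rRNA-depleted) and 0.29 (between the lines). Members higher were then 9 in ERM against NLS, 0 in rRNA-depleted RNA and 4 between the lines, and 0 were lower between the lines. Over all genes the higher counts were 1224 of 5826, 58 of 5357 and 538 of 5172, and 494 were lower between the lines. Over sites of all 3 constructs, HEK293T NES against NLS had 2 lower and ERM against NES 6 higher and 17 lower. Of 5750 genes, 1770 were lower in the former, and 787 were higher and 1142 lower in the latter. Without the variance trend, 2 were lower in HEK293T NES against NLS, 12 in ERM against NES and 1 between the lines. Without the minimum number of sites, 2 were higher in ERM against NES and 3 lower in K562, where the core minus regulatory difference was 0.34. The cause of these changes was not tested. Replicate numbers are shared by the groups, but same-numbered libraries did not deviate together (correlations across genes from -0.021 to 0.089). A fit with the replicate block gave 10 members higher and 1 lower between the lines in place of 12 and 2, 6 lower in K562 in place of 5 and 17 higher in ERM against NLS in place of 18. The other counts of members called were equal. When 1 library was left out, the number of all genes called also changed in every comparison. Leaving out each library in turn gave, in HEK293T NES against NLS, 28 to 30 higher, 2 to 5 lower and a core minus regulatory difference of 0.14 to 0.23. In K562 it gave 29 to 33 higher, 3 to 8 lower and 0.23 to 0.32. In ERM against NES it gave 1 to 3 higher, 15 to 18 lower and 0.04 to 0.07, and in ERM against NLS 15 to 17 higher, 4 to 6 lower and 0.07 to 0.13. In rRNA-depleted RNA it gave 0 to 14 higher, 0 to 1 lower and -0.15 to -8.0e-05, and between the lines 6 to 13 higher, 0 to 3 lower and 0.18 to 0.30. Among the members the naming rule chose for each comparison, none with a call turned its sign when 1 library was left out, while 100 results lost a call, 18 gained one and 614 did neither. With 2 libraries a group and no read depth, small changes in genes with few sites could not be resolved.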
